A study of Mus musculus with 4 samples.

Results

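Lung RNA of wild-type mice exposed to HDM, the house dust mite allergen of a common asthma model, was compared with lung RNA of wild-type mice given phosphate-buffered saline (PBS). The comparison uses 2 of the 4 RNA-seq libraries of the study, 1 per group, all from frozen whole lungs of C57BL/6 mice. The wild-type HDM animals had been sensitized to and challenged with HDM, and lungs were taken 48 h after the last dose. The PBS animals had received PBS into the trachea, and lungs were taken 24 h later. The other libraries are shown beside them as further values: Il22 knockout (IL22-/-) mice handled as the wild-type HDM group, 48 h after HDM, and wild-type mice 24 h after recombinant IL-22 into the trachea. The labels name no other allele or agent, give no age or sex, and leave unstated how many animals went into each library. None of the 4 libraries is from animals sensitized to HDM and then challenged with PBS.

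The levels are FPKM, fragments per kilobase of transcript and per 1000000 mapped fragments, which allow levels to be compared between genes. The HDM pair and the PBS and IL-22 pair are in separate tables, so the 2 columns were joined by symbol and RefSeq accession, rows of 1 symbol were added, and each library was divided by a scaling factor within 5% of 1. Levels are scaled FPKM in the order wild-type HDM, PBS, knockout HDM and IL-22. Differences, unless another pair is named, are wild-type HDM minus PBS on the log2(scaled FPKM + 1) scale, which understates the change of low genes. A gene was measured if its mean level in the pair was at least 1, and it was called higher or lower if the difference was at least 1 in size. With 1 library per side there is no replicate check, no test and no p-value, and HDM, the hour after the last dose, the dosing schedule and the table cannot be told apart. In whole lung, a larger number of cells of a type and more RNA per cell cannot be told apart either. Steps of the low values put the libraries at about 24.9, 19.97, 27.3 and 28.8 M reads (M for 1000000). Lung identity was clear in all libraries: Scgb1a1, the secretoglobin of club cells, stood at 125674, 139876, 127105 and 107890.0 and Sftpc, the surfactant protein of alveolar type II cells, at 31057, 35404, 37710.4 and 30379. Gene positions are from GENCODE M21 on GRCm38, the assembly also called mm10.

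House dust mite drives a type 2 immune response in the airway. Epithelial alarmins such as IL-33 and TSLP activate type 2 innate lymphoid cells and type 2 helper T cells, whose IL-4 and IL-13 act through IL-4 receptor alpha and the transcription factor STAT6 on macrophages and epithelium, and whose IL-5 supports eosinophils. In mice this response is known for alternatively activated macrophages that make Arg1 and chitinase-like proteins, for eotaxins and CCR4 ligands, and for club cells that turn to mucus production. IL-22 acts on epithelium through STAT3.

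Of 23284 genes in the tables, 13307 were measured, 481 were higher in the wild-type HDM library (3.61%) and 260 were lower (1.95%). The median difference of all measured genes was 0.01, and 79.3% of them lay within 1.5-fold. Of the called genes, 141 higher were under 1 in PBS and 37 lower were under 1 in the wild-type HDM library. Such genes passed the filter only through the library where they are high, which by itself requires a difference, and their number is given for the main groups. By class, 390 higher and 233 lower genes had an ordinary symbol, 35 and 17 were small RNAs, 53 and 9 were predicted or without a name, and 3 and 1 were pseudogenes. The largest differences upward among named genes were in Clca3, Ear11, Retnla, Ccl8 and Slc26a4, and downward in Rps27, Amd2, Camp, Ngp and Nr4a1. Rps27 and Amd2 have near-identical copies, so their single values are uncertain. Amd2 summed with its copy Amd1 had a difference of -0.09.

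**Figure D1:**
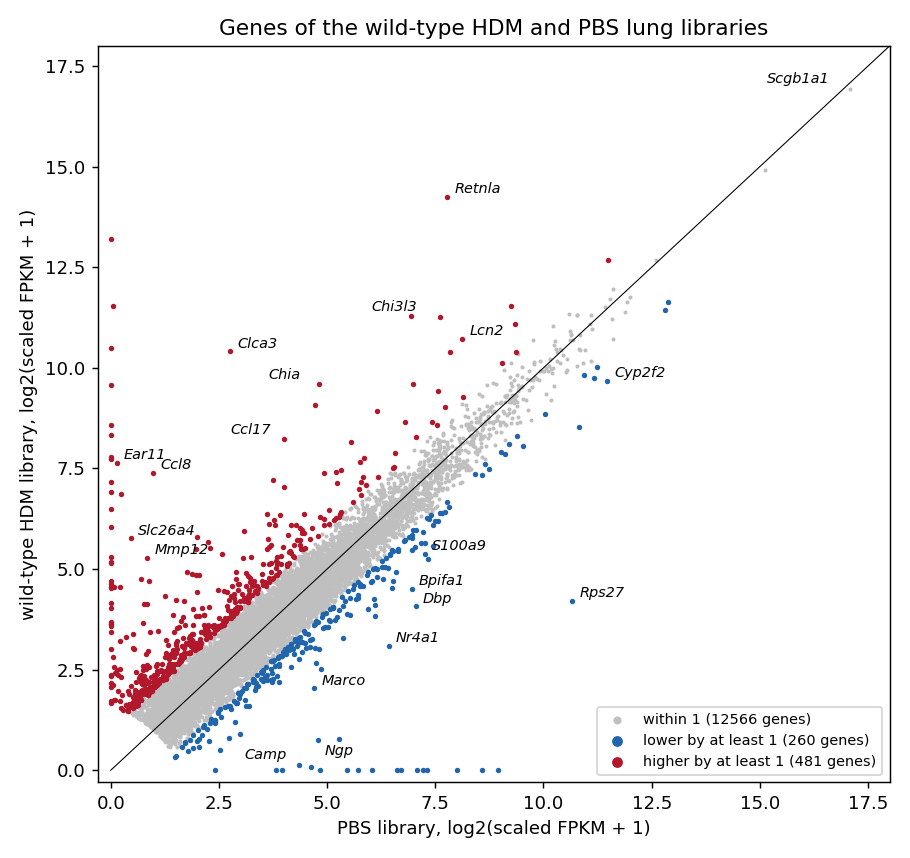
Level of each of the 13307 measured genes in the PBS library (horizontal) and the wild-type HDM library (vertical), both as log2(scaled FPKM + 1), 1 point per gene, with the line of equal level. The 481 genes higher by at least 1 are red and the 260 lower by at least 1 are blue, and points on an axis are listed at 0 in 1 library.

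The difference between the libraries followed the GC content of the transcripts. Over 13089 measured genes with a GC value, Spearman's rho between GC content and the difference was -0.60, a description across genes that share the same 2 libraries. In 5 groups of equal size, from the genes with the least GC to those with the most, the median difference was 0.40, 0.17, -0.02, -0.17 and -0.36. The same slope appeared in the other 3 pairs taken across the tables (rho -0.59 to -0.52), while the HDM pair and the PBS and IL-22 pair, each within 1 table, gave rho of -0.10 and -0.28 with group medians between -0.09 and 0.07. The genes called higher had a median GC content of 45.6%, those called lower 56.2%, and all measured genes 50.5%. The differences were therefore also centred within bins of GC content, an alternative chosen after the data were seen. After centring, 355 genes were higher (2.71%) and 134 lower (1.02%), of which 303 and 120 were also called before it. Of the called genes, 22 higher and 5 lower have no GC value. Counts after this centring are given beside gene groups as GC-centred. Each count of list members is to be read against the shares of all measured genes. These were 3.61% higher and 1.95% lower, and 2.71% and 1.02% after GC centring. Against the IL-22 library they were 2.99% and 1.72%, and for the knockout HDM library against PBS 1.79% and 1.16%.

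**Figure D2:**
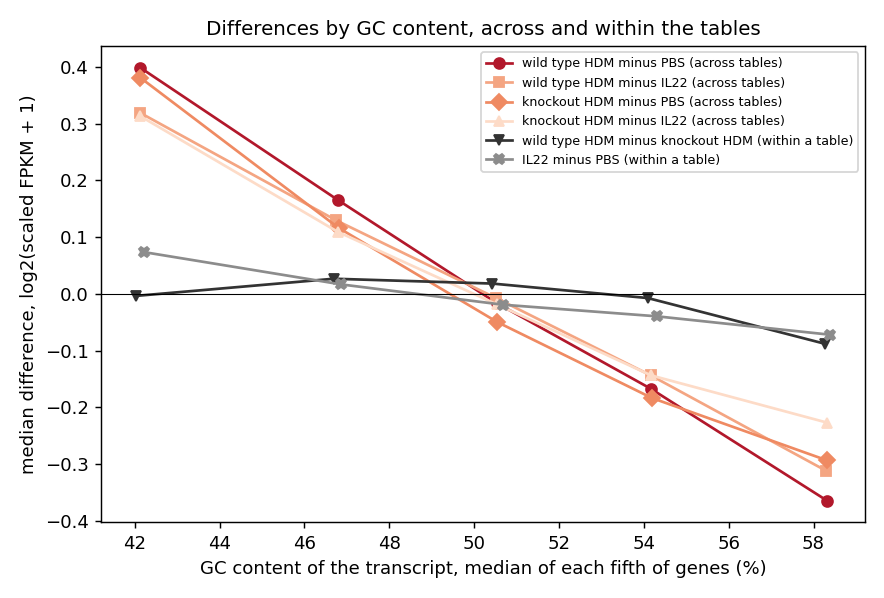
Median difference in log2(scaled FPKM + 1) (vertical) in 5 equal groups of measured genes by the GC content of the transcript (horizontal, median of the group in percent), 1 line per pair of libraries. The 4 pairs across tables slope from between 0.31 and 0.40 down to between -0.36 and -0.23, and the 2 pairs within a table stay between -0.09 and 0.07.

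Genes that IL-4 and IL-13 are known to induce in macrophages and airway epithelium were higher in the wild-type HDM library. Of 24 listed type 2 effector genes 21 were measured, 16 were higher and 0 lower, against 3.61% higher among all measured genes, and the median difference was 3.41 (GC-centred 17 higher, 0 lower, median 3.35). Pdcd1lg2, Il13ra2 and Serpinb2 were under the filter. Of the 16 higher genes Ear11, Ccl8, Slc26a4, Fbp1, Ccl24 and Itln1 were under 1 in PBS and passed the filter only through their HDM level. With the IL-22 library in place of PBS (2.99% of measured genes higher and 1.72% lower) the count was again 16 and 0. The summed level of the list was 25799 in the wild-type HDM library, 644 in PBS, 4656 in the knockout HDM library and 888 in the IL-22 library.

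Retnla (RELM alpha, chr16:48842551-48844461), a secreted protein of alternatively activated macrophages and airway epithelium, had levels of 19566, 219, 3501 and 435. It was the most abundant gene of the list in each library, and the difference was 6.48. Clca3 (now Clca1, chr3:145003817-145032776), a secreted goblet cell protein, was at 1357, 5.73, 325 and 26.8, a difference of 7.66. Ear11 (now Rnase2a, chr14:51255262-51256112), a ribonuclease of the eosinophil-associated family, was at 197, 0.102, 5.69 and 0.204, a difference of 7.49. For all 3 genes the wild-type HDM library was the highest, the knockout HDM library came next, and PBS and IL-22 were the lowest pair.

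A chitinase and 2 chitinase-like genes that lie side by side on chromosome 3, Chia, Chi3l3 and Chi3l4, were higher. Chia (acidic mammalian chitinase, now Chia1, chr3:106113229-106132120), which digests chitin, was at 773, 27.2, 132 and 29.6, a difference of 4.78. Chi3l3 (Ym1, now Chil3, chr3:106147554-106167564) and Chi3l4 (Ym2, now Chil4, chr3:106201490-106219507), lectins without chitinase activity, were at 2462, 193, 366 and 178 and at 540.2, 25.1, 63.0 and 25.4, with differences of 3.67 and 4.37. Chi3l3 and Chi3l4 are close copies whose reads could be split between them, and their summed level was 3002, 218, 429 and 204. The wild-type HDM library was the highest for each of these genes, and the PBS and IL-22 levels lay close together.

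Arg1 (arginase 1, chr10:24915221-24927484), which takes arginine toward ornithine, was at 17.8, 1.82, 2.03 and 2.96, a difference of 2.74. Here the knockout HDM level lay beside the PBS level and below the IL-22 level. Fbp1 (fructose-1,6-bisphosphatase, chr13:62864753-62888282), a gluconeogenic enzyme, was at 22.4, 0.161, 0.504 and 0.296, a difference of 4.34. Itln1 (intelectin 1, chr1:171518122-171535294), a lectin of goblet cells, was at 4.96, 0.0528, 0.389 and 0.247, from 115, 1, 10 and 7 reads. Of the members that were measured and not called, Ccl22 had a difference of 0.96, Mrc1 of 0.72, Alox15 of 0.53, Postn of 0.46 and Cish, a feedback inhibitor induced by STAT5, of 0.07. Alox15, a lipoxygenase of eosinophils and macrophages, was at 5.40, 3.42, 0.362 and 2.69 and was the 1 member lower by at least 1 in the knockout HDM library than in PBS.

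STAT6 binds palindromes made of TTC, any 4 bases and GAA, so these letters were searched on both strands in RefSeq promoter windows of GRCm38.p6, from 250 bases before to 50 after the start site. They were in 6.43% of the windows of 10504 measured genes and in 11.1% of those of 342 higher genes. Of 12 higher type 2 effectors with a window 2 held them, Retnla and Ccl17. The letters are not particular to that list, with 3 of 12 higher interferon genes, 1 of 11 higher chemokines and 0 of 6 higher goblet cell genes. The part of base composition in these shares was not tested. The Retnla and Ccl17 stretches are shown with that of Retnlg, the neighbour of Retnla, because the pair of neighbours shares the match. Bases before the start site are given 5′ to 3′ on the strand of the gene, with the match in capitals:
Retnla, chr16:48842424-48842513 (+ strand): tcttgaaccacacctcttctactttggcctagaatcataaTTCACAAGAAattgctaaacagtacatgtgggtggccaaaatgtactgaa
Retnlg, chr16:48872496-48872585 (+ strand): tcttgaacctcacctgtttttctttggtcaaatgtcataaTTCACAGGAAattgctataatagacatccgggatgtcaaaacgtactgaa
Ccl17, chr8:94810259-94810348 (+ strand): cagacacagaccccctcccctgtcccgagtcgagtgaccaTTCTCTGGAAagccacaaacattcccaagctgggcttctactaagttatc
The Retnla and Retnlg stretches have the same base at 69 of 90 places, and the match is 135 and 62 bases before the start site of the table. Retnlg (chr16:48872621-48874496), a resistin-like gene known from granulocytes, was at 80.3, 13.9, 22.1 and 12.2, a difference of 2.44. Retnlb (chr16:48816856-48818892), the resistin-like gene of goblet cells, had 39, 0, 0 and 2 reads, 10.4-fold over a floor of 3 reads in PBS (lower limit of the counting interval 8.07). A match is a description of these letters and neither a site nor a cause.

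**Figure D3:**
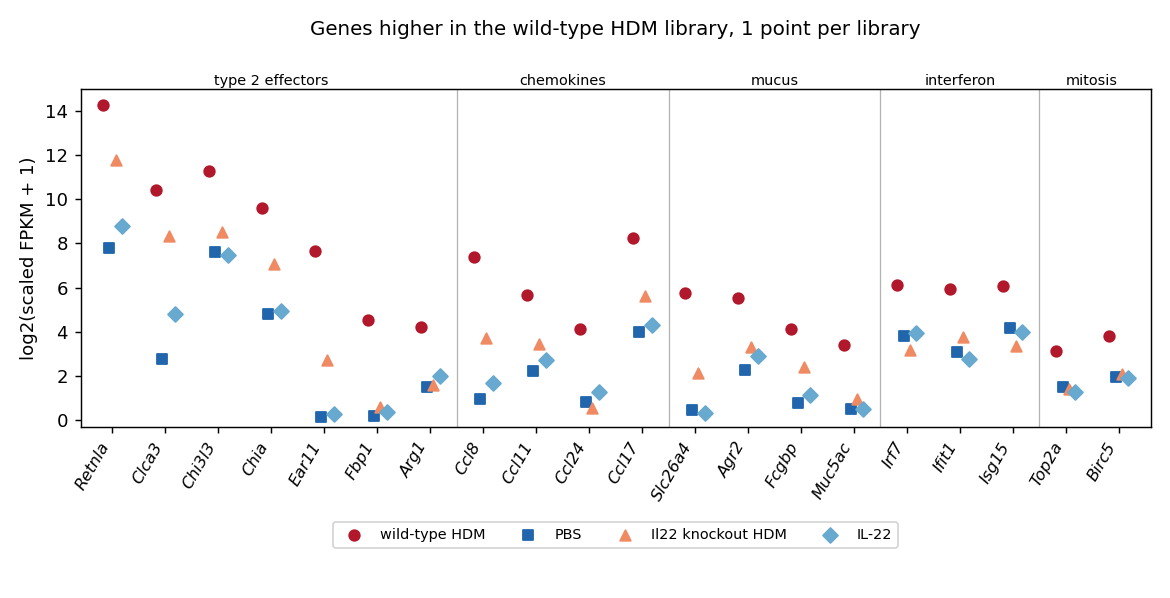
Level of 20 genes that were higher in the wild-type HDM library, as log2(scaled FPKM + 1), with 1 point for each of the 4 libraries and genes grouped by list. The wild-type HDM point is the highest for each gene, the knockout HDM point is next for Retnla, Clca3, Chi3l3, Chia and Ear11, and it lies at or under the PBS point for Ccl24, Irf7, Isg15 and Top2a.

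Many of the measured chemokines were higher, among them ligands that draw eosinophils, type 2 helper T cells, monocytes and neutrophils. Of 36 listed chemokines 31 were measured, 17 were higher and 1 lower, with a median difference of 1.06 (GC-centred 15 and 1; 15 and 2 against the IL-22 library). Among all measured genes 3.61% were higher and 1.95% lower. Of the 17, 8 passed the filter only through their HDM level (Ccl2, Ccl4, Ccl7, Ccl8, Ccl24, Cxcl1, Cxcl5 and Cxcl9), and with a mean of at least 5 the count was 10 of 21. Among CCR3 ligands, Ccl11 (eotaxin 1, chr11:82057823-82062955) was at 49.6, 3.75, 10.01 and 5.55 and Ccl24 (eotaxin 2, chr5:135569937-135573049) at 16.4, 0.774, 0.470 and 1.43, with differences of 3.41 and 3.29. The knockout HDM level of Ccl24 was the lowest of the 4, while that of Ccl11 was the second highest. Ccl8 (chr11:82115185-82116799), a ligand of CCR8 in mice, was at 167, 0.965, 12.2 and 2.26, a difference of 6.42. Ccl17 (chr8:94810453-94812036), a CCR4 ligand made by dendritic cells, was at 299, 15.1, 47.5 and 18.8, a difference of 4.21, and its partner ligand Ccl22 at 20.6, 10.1, 10.1 and 11.6, a difference of 0.96 that is just under the call. Ccl1, the other CCR8 ligand, had 11, 0, 0 and 0 reads.

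Ligands of CCR2 and of neutrophil receptors were also higher. The monocyte attractants Ccl2, Ccl7 and Ccl12 had differences of 2.09, 2.08 and 2.51, with Ccl2 at 6.77, 0.820, 1.33 and 2.03. The CXCR2 ligands Cxcl1 and Cxcl5 were at 11.6, 0.663, 1.08 and 0.887 and at 6.09, 0.0340, 0.251 and 0.0683, and Cxcl5 had 207 reads against 1 in PBS. The CXCR3 ligands Cxcl10 and Cxcl9, which interferons induce, had differences of 2.07 and 1.19, and Cxcl9 was under 1 after GC centring (0.86). Ccl20, the CCR6 ligand, had a difference of 1.53 and Cxcl13, which draws B cells, of 1.06. The exception was Cxcl14, a chemokine of resting epithelium, at 72.2, 188, 93.6 and 161, a difference of -1.37. Homeostatic ligands lay closer together, with Cxcl12 at 0.19, Ccl19 at 0.23 and Ccl21a at 0.75.

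Among 11 measured chemokine receptors 4 were higher and 0 lower (GC-centred 1 higher and 1 lower), against 3.61% higher among all measured genes. Ccr1 and Ccr2, receptors of monocytes and macrophages, had differences of 1.33 and 1.11, and both were under 1 after GC centring (0.80 and 0.57). Cxcr6, a receptor of tissue lymphocytes, was at 4.51, 1.17, 2.13 and 1.12, a difference of 1.35 (GC-centred 1.014). Receptors under the filter were read from recovered reads, whose exact binomial 95% intervals cover counting error only. Ccr3, the eotaxin receptor, had 51, 2, 8 and 10 reads, a ratio of wild-type HDM to PBS of 20.4 after depth (interval 5.37 to 173). Ccr4 had 100, 19, 60 and 33 reads, a ratio of 4.21 (2.56 to 7.29), and Ccr8 had 14, 3, 9 and 15.

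The cytokines that head the type 2 response were near the limit of detection in whole lung. Il4 had 2, 2, 1 and 1 reads, and Il9 and Il25 had 0 in both libraries of the comparison. Il5 had 12, 0, 9 and 1 reads, 3.20-fold over a floor of 3 reads in PBS (lower limit of the interval 2.22). Il13 had 19, 3, 0 and 3 reads, a ratio of 5.07 (interval 1.49 to 26.8). Il22 had 8, 0, 0 and 0 reads and its near-identical neighbour Iltifb 5, 0, 0 and 0, so 0 reads of Il22 do not mark the knockout here. The intervals for Il4 include equal levels, while those of Il5 and Il13 lie above them.

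Alarmins and receptors of the type 2 pathway differed from each other. Il33 (chr19:29925114-29960718), the nuclear alarmin of alveolar type II cells, was at 168, 36.1, 58.0 and 32.9, a difference of 2.19 (GC-centred 1.83), and the other 3 libraries lay between 32.9 and 58.0. Its receptor Il1rl1 (ST2, chr1:40429570-40465415) was at 3.33, 0.697, 1.53 and 0.696, a difference of 1.35 (GC-centred 1.03). Tslp pointed the other way, at 3.29, 5.30, 4.61 and 4.08, a difference of -0.55 that became -1.03 after GC centring. Csf2, the growth factor of macrophages and granulocytes, was at 11.1, 3.75, 5.18 and 3.19, a difference of 1.35. The IL-4 and IL-13 receptor chains Il4ra and Il13ra1 had differences of 0.47 and 0.44. The decoy receptor Il13ra2 had 31, 0, 5 and 2 reads, 8.27-fold over the floor (lower limit of the interval 6.34). In all, 4 of 13 measured members of this list were higher and 0 lower (GC-centred 3 and 1), and 9 of 22 were under the filter.

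Goblet cell and mucus genes were higher. Of 18 measured members 10 were higher and 0 lower, with a median difference of 1.18 (GC-centred 12 and 0, median 1.41; 9 and 0 against the IL-22 library). The share higher among all measured genes was 3.61%. Of the 10, 6 passed the filter only through their HDM level (Muc5ac, Fcgbp, Slc26a4, Tff1, Itln1 and Fut2), and with a mean of at least 5 the count was 5 of 11. Muc5ac (chr7:141788972-141819231), the gel-forming mucin that rises in goblet cell metaplasia, was at 9.52, 0.434, 0.960 and 0.438, which is 1895 reads against 71 in PBS and a ratio of 21.4 (interval 16.9 to 27.5). Muc5b, the mucin of resting airways, had a difference of 0.89 (GC-centred 1.06). Spdef, the transcription factor of goblet cells, was at 4.85, 1.55, 1.44 and 1.65, a difference of 1.196, and Foxa2, which restrains mucus genes, was at 17.2, 25.7, 20.4 and 22.6, a difference of -0.55. The wild-type HDM library was the highest for Muc5ac and Spdef, and the knockout HDM level of Spdef lay under PBS.

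Genes that fold, bind and modify mucins were higher too. Agr2, a disulfide isomerase needed for mucins, was at 45.0, 3.91, 8.84 and 6.54 and Fcgbp, a mucin-binding protein, at 16.4, 0.709, 4.37 and 1.23, with differences of 3.23 and 3.35. Slc26a4 (pendrin, chr12:31519827-31559969), an anion exchanger of the airway surface, was at 53.4, 0.377, 3.35 and 0.253, a difference of 5.30. Pigr, which carries IgA across epithelium, was at 175, 38.7, 55.7 and 41.4, a difference of 2.15, and Tff1, a trefoil peptide, was at 2.21 and listed at 0 in PBS. The fucosyltransferase Fut2 was at 2.15, 0.399, 0.506 and 0.664, a difference of 1.17. Fcgbp, Slc26a4 and Agr2 had their second highest level in the knockout HDM library. Of the 23 genes of the unfolded protein response and secretion that were measured, 1 was higher and 0 lower, with a median of 0.38 (GC-centred 1 and 0), against 3.61% higher among all measured genes. That gene was Sdf2l1, at 38.8, 14.4, 17.8 and 25.6.

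Epithelial targets of IL-22 and STAT3 differed in both directions. Of 22 measured, 6 were higher and 3 lower, with a median of 0.29 (GC-centred 6 and 2, median 0.48). Saa3, an acute phase protein, was at 131, 15.1, 8.13 and 17.9 and Lcn2 (lipocalin 2), which binds bacterial siderophores, at 1680.2, 278, 283 and 341, with differences of 3.04 and 2.59. Reg3g, an antibacterial lectin, was at 216, 56.6, 43.2 and 139.9, a difference of 1.91, and was also above PBS in the IL-22 library. S100a8 and S100a9, which also mark neutrophils, were the opposite, with differences of -1.48 and -1.88, and Hp (haptoglobin) was at 465, 1051, 539 and 921, a difference of -1.17 (GC-centred -0.90). For Saa3 and Reg3g the knockout HDM library was the lowest of the 4. Among IL-22 receptors, Il22ra1 had 66, 45, 53 and 98 reads, and the soluble inhibitor Il22ra2 had 10, 45, 56 and 40, a ratio of 0.178 (interval 0.0799 to 0.358).

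Airway club cell genes leaned lower, with 12 of 13 below 0, apart from Retnla, which is also on their marker list. Of 13 measured markers 6 were lower and 1 higher, against 1.95% lower among all measured genes, and the median was -0.93 (GC-centred 3 lower and 1 higher, median -0.80; 3 lower against the IL-22 library). Cyp2f2 (chr7:27119909-27133660), the cytochrome P450 of club cells, was at 822, 2840.1, 1318 and 2325, a difference of -1.79. Scgb3a2 was at 859, 2290.3, 1179.9 and 2292 and Cbr2 (carbonyl reductase 2) at 2755, 7208, 4362 and 5472, with differences of -1.41 and -1.39. Both HDM libraries were under both other libraries for these 3 genes, with wild type under knockout. Scgb1a1 differed by -0.15 and took 18.3 and 20.5% of the total FPKM of the wild-type HDM and PBS libraries. Ciliated cell markers had 0 of 15 called, with a median of 0.10.

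Enzymes that handle xenobiotics were lower with them. Of 27 measured antioxidant and xenobiotic genes 5 were lower and 1 higher, with a median of -0.43 (GC-centred 5 and 1, median -0.52; 3 lower against the IL-22 library). Cyp2a5 (chr7:26835305-26843548), a coumarin hydroxylase, was at 22.2, 89.6, 20.2 and 86.2 and Gstm1, a glutathione S-transferase, at 233, 554, 372 and 480.2. Gclc, the catalytic subunit of glutathione synthesis, was the exception at 140.2, 36.4, 71.2 and 37.0, a difference of 1.92, while its partner Gclm had a difference of 0.01. Bpifa1 (SPLUNC1, chr2:154142880-154149219), an airway host defence protein, was at 21.7, 123, 16.6 and 307, a difference of -2.45. Bpifb1 lay at 206, 150.5, 106 and 310.4, a difference of 0.45. Cyp2a4, Cyp2a5 and Cyp2f2 are neighbours among the measured genes of chromosome 7 (chr7:26307169-27133660), and all were lower.

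**Figure D4:**
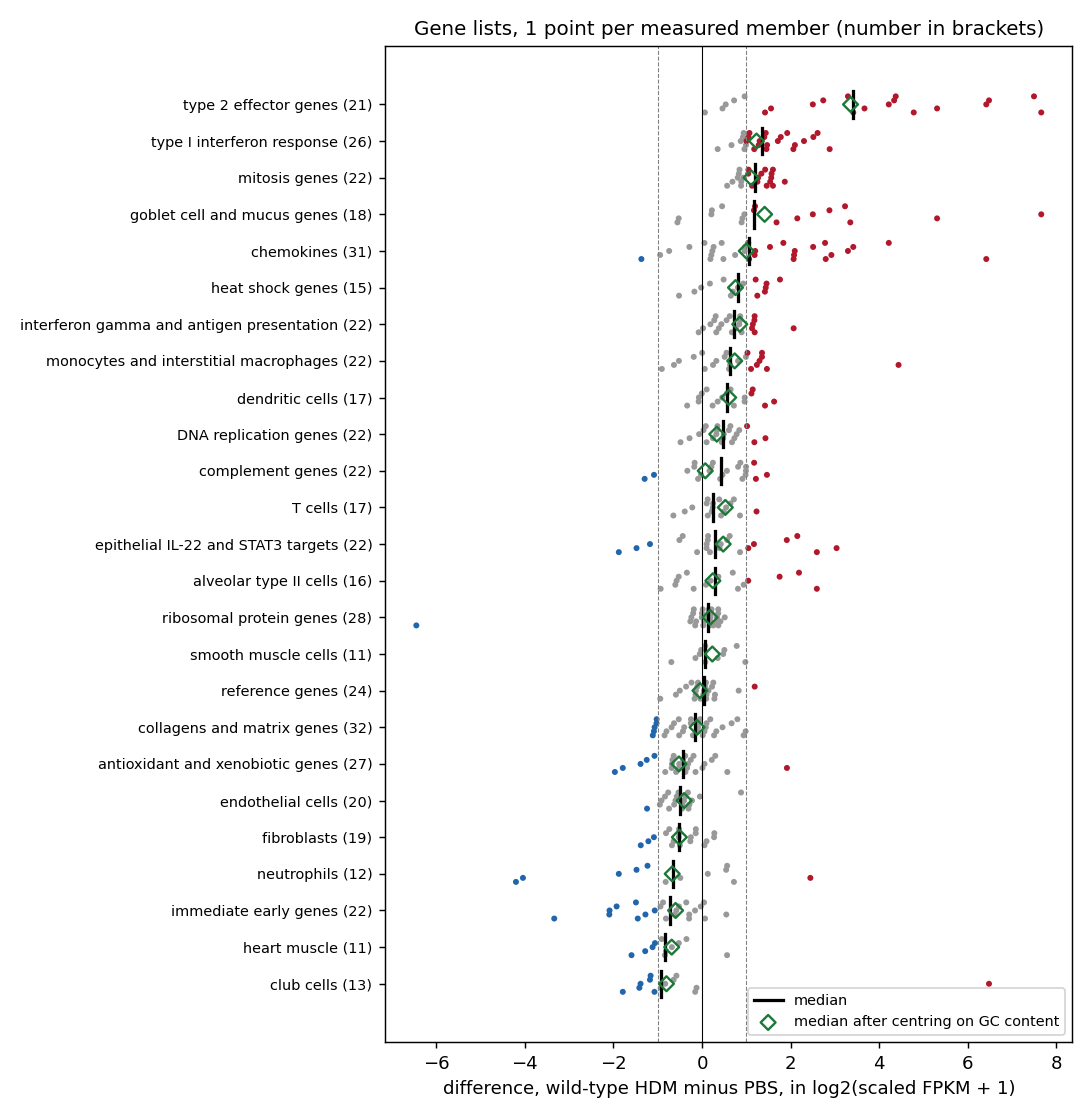
Difference in log2(scaled FPKM + 1), wild-type HDM minus PBS (horizontal), for the measured members of 25 gene lists (vertical), 1 point per gene, with the median as a bar and the median after GC centring as a diamond. Medians run from 3.41 for type 2 effectors to -0.93 for club cell markers, and the dashed lines mark the size rule of 1.

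Genes of the type I interferon response were higher in the wild-type HDM library. All 26 listed genes were measured, 19 were higher, 0 lower and 26 above 0, with a median of 1.35 (GC-centred 18 and 0, median 1.23; 21 and 0 against the IL-22 library). The share of all measured genes that were higher was 3.61%. Of the 19, Mx1, Mx2, Oas2 and Oas3 passed the filter only through their HDM level. Ifit1 (chr19:34640871-34650009), which binds viral RNA, was at 61.0, 7.41, 12.5 and 5.81, and Irf7 (chr7:141262706-141266481), the transcription factor that amplifies interferon, at 67.5, 12.9, 8.20 and 14.2, with differences of 2.88 and 2.30. The GTPase Mx1 (chr16:97447035-97462907) was at 7.19, 0.436, 0.846 and 0.649, Oas1a, which makes 2-5A to activate RNase L, at 14.997, 2.74, 2.18 and 2.96, and the ubiquitin-like protein Isg15 (chr4:156199424-156200818) at 67.05, 16.9, 9.42 and 15.04. The wild-type HDM library stood alone at the top for these genes, and the other 3 lay far under it. Against the same PBS library, the knockout HDM library had 0 of 22 of these genes higher and 0 lower (1.79% and 1.16% of all its measured genes), with a median of -0.23.

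The interferon-stimulated response element, written as GAAA, any 2 bases and GAAA, was searched in the same windows on both strands. It was in 3.84% of the windows of measured genes, in 12.0% of those of higher genes, and in 7 of the 12 higher interferon genes that have a window (58.3%): Isg15, Stat2, Ifit1, Ifit3, Oas1a, Oas3 and Rsad2. The stretches before the start sites of 4 of them show how the matches lie, with matches on either strand in capitals:
Isg15, chr4:156200835-156200936 (- strand): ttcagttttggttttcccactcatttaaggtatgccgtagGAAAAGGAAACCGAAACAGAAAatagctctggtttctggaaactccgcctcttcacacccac
Ifit1, chr19:34640745-34640853 (+ strand): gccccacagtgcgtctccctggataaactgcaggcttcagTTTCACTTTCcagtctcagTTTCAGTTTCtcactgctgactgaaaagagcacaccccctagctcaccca
Ifit3, chr19:34583333-34583456 (+ strand): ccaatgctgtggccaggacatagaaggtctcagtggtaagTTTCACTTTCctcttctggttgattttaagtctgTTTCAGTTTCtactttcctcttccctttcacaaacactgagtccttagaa
Oas1a, chr5:120907526-120907585 (- strand): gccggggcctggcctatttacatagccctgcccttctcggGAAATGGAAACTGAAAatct
Isg15 holds 3 matches that overlap, Oas1a 2 that overlap 4 bases before the start site, and Ifit1 and Ifit3 hold 2 separate matches each on the other strand. The windows of Oas1a, Stat2 and Ifit2 also hold the STAT6-type letters. For the response element, too, the part of base composition in the shares was not tested. The Ifit3 difference was 1.07, at 81.6, 38.3, 36.7 and 30.3.

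Genes of the interferon gamma response and antigen presentation showed smaller differences. Of 22 measured 6 were higher and 0 lower, with a median of 0.72 (GC-centred 6 and 0, median 0.85), against 3.61% higher among all measured genes. H2-Aa, a class II chain, was at 623, 281, 376 and 239 and B2m, the light chain of class I, at 6601, 2895, 2715 and 2645, with differences of 1.15 and 1.19 (GC-centred 0.75). Socs1, a feedback inhibitor, was at 5.24, 1.75, 1.79 and 2.38 and Nlrc5, the class I transactivator, at 3.83, 1.21, 1.65 and 0.961. Ifng itself had 4, 3, 2 and 11 reads. Irf1 had a difference of 0.02, and Gbp2 of 0.31.

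Genes of mitosis were higher, and genes of DNA replication less so in the counts. Of 22 measured mitosis genes 14 were higher, 0 lower and 22 above 0, against 3.61% higher among all measured genes, with a median of 1.19 (GC-centred 13 and 0, median 1.11; 13 and 0 against the IL-22 library). Of the 14, Ccnb1, Plk1 and Kif11 passed the filter only through their HDM level, and just 3 of the mitosis genes had a mean of at least 5. Birc5 (survivin, chr11:117849251-117855743) was at 13.3, 2.91, 3.34 and 2.76, Top2a (topoisomerase II alpha, chr11:98992943-99024189) at 7.65, 1.85, 1.64 and 1.42, and Mki67, the proliferation marker, at 6.06, 1.39, 1.57 and 1.49, with differences of 1.87, 1.60 and 1.56. The knockout HDM, PBS and IL-22 levels of these genes lay close together under the wild-type HDM level. Of 22 measured replication genes 3 were higher and 0 lower, with a median of 0.46 (GC-centred 1 and 0): Tk1, thymidine kinase, at 6.61, 1.82, 2.41 and 2.01, Rfc4, a clamp loader subunit, at 5.14, 1.71, 3.35 and 1.96, and Rrm2, a ribonucleotide reductase subunit, at 7.14, 3.02, 1.93 and 2.69. The helicase subunits Mcm2 and Mcm3 had differences of 0.03 and -0.07. In the knockout HDM library 0 of 15 mitosis genes were higher and 0 lower than in PBS, with a median of 0.04.

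Many promoters of mitosis genes hold the cell cycle homology region TTTGAA. These letters were in 14.5% of the windows of measured genes, in 25.7% of those of higher genes and in 8.90% of those of lower genes. They were in 9 of the 12 higher mitosis genes with a window (75%). Other lists held them too, with 6 of 12 higher type 2 effectors (50%) and 5 of 11 higher chemokines (45.5%). For higher interferon genes it was 1 of 12, and for higher goblet cell genes 0 of 6. The pattern is short and rich in A and T, and the higher genes have less GC than the lower ones, so the part of base composition in these shares was not tested. The stretches of 4 of the 9 are shown as examples with a match near the start site, which Kif11 also has. Matches on either strand are in capitals:
Cdk1, chr10:69352913-69353023 (- strand): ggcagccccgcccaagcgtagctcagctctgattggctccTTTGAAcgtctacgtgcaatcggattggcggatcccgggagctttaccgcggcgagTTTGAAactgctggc
Top2a, chr11:99024190-99024408 (- strand): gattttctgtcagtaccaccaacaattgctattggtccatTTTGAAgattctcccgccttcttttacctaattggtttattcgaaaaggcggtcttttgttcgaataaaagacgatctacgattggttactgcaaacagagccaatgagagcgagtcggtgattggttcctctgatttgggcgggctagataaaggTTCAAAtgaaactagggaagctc
Ube2c, chr2:164769860-164769928 (+ strand): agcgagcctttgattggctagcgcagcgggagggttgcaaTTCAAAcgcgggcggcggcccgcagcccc
Prc1, chr7:80294406-80294475 (+ strand): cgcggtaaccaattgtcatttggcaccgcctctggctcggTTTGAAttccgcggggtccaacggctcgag
The last match is 9, 17, 23 and 24 bases before the start site. In the genes not shown it is 13 bases before for Kif11, 92 for Mki67 and 161 for Ccnb2, and Plk1 and Kif23 have no whole match before the start site. Cdk1, the kinase that starts mitosis, had a difference of 1.25 at 3.81, 1.02, 0.877 and 0.734, Ube2c, an enzyme of the anaphase-promoting complex, of 1.54, and Prc1, a regulator of cytokinesis, of 1.43.

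Markers of immune cells were not uniform. Among eosinophil markers 7 of 12 were measured, 4 were higher and 0 lower, with a median of 1.03 (GC-centred 3 and 0). Of the 4, Ear11 and Prg2 passed the filter only through their HDM level. The summed level was 469.9, 89.4, 176 and 72.3. The members behind this sum are Ear11 and Ear2 (203, 52.8, 114 and 41.8), ribonucleases that macrophages also make. The granule protein Prg2 (major basic protein) had 45, 7, 3 and 15 reads, a ratio of 5.15 (interval 2.30 to 13.5), and Il5ra had 46, 11, 27 and 20, a ratio of 3.35 (1.71 to 7.17). Epx (eosinophil peroxidase) had 1, 2, 0 and 0 reads and Prg3 had 1, 0, 0 and 1, so these defining granule transcripts were at or near 0 in every library. Siglec5 (now Siglecf), the surface marker of eosinophils and alveolar macrophages, was at 4.10, 4.998, 4.34 and 4.599.

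Neutrophil markers differed in both directions. Of 12 measured 5 were lower and 1 higher, against 1.95% lower among all measured genes, and 5 were above 0, with a median of -0.66 (GC-centred 6 and 2, median -0.67; 5 and 1 against the IL-22 library). Of the lower genes, Camp, Ngp and Mmp9 passed the filter only through their PBS level. Camp (cathelicidin, chr9:109847379-109849617) and Ngp (neutrophilic granule protein, chr9:110419747-110423012), granule genes of maturing neutrophils, were at 0.102, 19.3, 0.369 and 10.8 and at 0.674, 26.6, 0.837 and 14.3, with differences of -4.20 and -4.04. Both HDM libraries were near 0 and both other libraries were above 10. The primary granule genes Elane and Mpo had 0, 29, 0 and 12 reads and 1, 48, 1 and 35 reads. S100a8 was at 43.8, 124, 94.7 and 119.5 and S100a9 at 40.6, 152, 92.5 and 138, highest in PBS and lowest in the wild-type HDM library. Retnlg was the marker that was higher, and as a related copy beside Retnla it can share reads with that gene. Cxcr2, the receptor of mature neutrophils, had a difference of 0.54.

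Macrophage markers differed from each other. Of 17 measured alveolar macrophage markers 4 were higher and 3 lower, with a median of 0.05 (GC-centred 4 and 2, median -0.15). Marco (chr1:120474538-120505024), a scavenger receptor, was at 3.10, 25.1, 4.42 and 20.7 and Fabp1, a fatty acid-binding protein, at 8.82, 39.95, 18.7 and 29.3, with differences of -2.67 and -2.06, while Ear2 and Ctsk (cathepsin K) had differences of 1.92 and 1.57. Pparg, the transcription factor of alveolar macrophages, differed by -0.15 and Fabp4 by 0.05. Of 22 measured markers of monocytes and interstitial macrophages 8 were higher and 0 lower, with a median of 0.62 (GC-centred 9 and 0, median 0.74), but only 3 were higher and 2 lower when the IL-22 library was the control.

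The matrix metalloproteinase Mmp12 (macrophage elastase, chr9:7344381-7369499) was at 37.9, 0.798, 2.25 and 1.18, a difference of 4.44, and was high in the wild-type HDM library alone. The complement gene C1qb was at 155, 55.4, 43.0 and 124 and Aif1, a marker of macrophages, at 17.01, 6.33, 5.70 and 21.4, so for both the IL-22 library of the other table lay beside the wild-type HDM library. Fcgr3 (CD16) was at 51.9, 19.7, 22.7 and 22.7, with the other 3 libraries close together. Ccr2, Csf1r and Lyz2 differed by 1.11, 0.00 and 0.06. Among 22 measured complement genes 3 were higher and 2 lower (GC-centred 6 and 1), against 3.61% and 1.95% of all measured genes. The higher ones were C1qb, Cfi and Hc, and the lower ones C5ar1 and Cfd. C5ar1, the C5a receptor, was at 3.68, 10.5, 4.57 and 10.2.

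Dendritic cell markers had 4 of 17 higher and 0 lower, with a median of 0.56 (GC-centred 5 of 16 and 0, median 0.60), against 3.61% higher among all measured genes. Mgl2 (CD301b), a lectin of type 2 dendritic cells and macrophages, was at 51.7, 18.7, 15.6 and 15.5 and Cd209d at 6.49, 1.42, 2.21 and 0.903, with differences of 1.42 and 1.63. Batf3, the transcription factor of cross-presenting dendritic cells, was at 7.22, 2.72, 2.44 and 3.45, a difference of 1.14, while Xcr1 and Clec9a of the same subset differed by 0.24 and -0.34. For Mgl2 and Batf3 the wild-type HDM library was the highest and the other 3 were close together.

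Lymphocyte markers had few members called, where all measured genes had 3.61% higher and 1.95% lower. Of 17 measured T cell markers Il7r, the IL-7 receptor, was higher and 0 were lower, with a median of 0.25 (GC-centred Cd5 in place of Il7r, median 0.53). Cd3e was at 11.3, 8.41, 6.47 and 8.88 and Cd4 at 4.18, 2.32, 2.204 and 2.15, while Cd8b1 differed by -0.65. Of 6 measured markers of type 2 helper T cells and innate lymphoid cells Il1rl1 and Klrg1 were higher (GC-centred also 2), both under 1 in PBS, and Gata3, their transcription factor, had 284, 304, 367 and 352 reads, a ratio of 0.748 (interval 0.634 to 0.882). Checkpoint and regulatory genes had 4 of 15 higher and 0 lower, with a median of 0.74 (GC-centred 6 and 0). Of the 4, Ctla4, Pdcd1 and Klrg1 passed the filter only through their HDM level. Among them Tnfrsf9 (4-1BB) was at 19.2, 1.39, 1.04 and 1.09, Ctla4, an inhibitory receptor of activated and regulatory T cells, at 3.99, 0.172, 0.611 and 0.517, and Pdcd1 (PD-1) at 2.71, 0.343, 0.485 and 0.345. Foxp3, the factor of regulatory T cells, had 68, 16, 24 and 29 reads, a ratio of 3.40 (interval 1.95 to 6.29).

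B cell markers had 1 of 13 higher and 0 lower, and plasma cell markers 1 of 10 and 0, with the same counts after GC centring. All measured genes had 3.61% higher and 1.95% lower. Fcer2a (CD23), the low-affinity IgE receptor, was at 9.50, 3.53, 2.69 and 4.93, a difference of 1.21, while Cd79a and Ms4a1 of the same cells differed by -0.67 and 0.80. Igj (J chain, now Jchain, chr5:88519809-88527891), which joins IgA and IgM, was at 25.0, 0.832, 15.4 and 2.37, a difference of 3.82. Both HDM libraries were above both other libraries for Igj. Mast cell and basophil markers had 0 of 5 called (GC-centred 1 lower), with 4 below 0 and 1 above. Members under the filter went different ways. The mucosal mast cell proteases Mcpt1 and Mcpt2 had 11, 1, 1 and 0 reads and 13, 0, 1 and 0 reads. In contrast, Mcpt4 had 7, 23, 12 and 26 reads, a ratio of 0.244 (interval 0.0883 to 0.587). Mcpt8 had 2, 4, 1 and 21 reads and Cpa3 had 27, 27, 23 and 40. Natural killer markers had 1 of 11 higher, Klra8, at 2.09, 0.282, 3.08 and 0.738, which passed the filter only through its HDM level and was under 1 after GC centring (0.79, 0 called).

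Arginine and polyamine genes had 4 of 12 higher and 0 lower (GC-centred also 4 and 0). Besides Arg1, Arg2 was at 9.88, 3.30, 7.92 and 2.48 and Ass1, an enzyme of arginine synthesis, at 2.71, 0.707, 1.57 and 8.84e-05. The 4th, Amd1, codes for a polyamine enzyme and has a copy, Amd2. Amd1 was at 22.3, 0.0461, 23.7 and 0.0412 and Amd2 at 0.0572, 23.8, 0.0685 and 21.9. The level thus stood under Amd1 in the HDM table and under Amd2 in the PBS and IL-22 table. How reads were assigned to the copies was not tested. The sum of Amd1 and Amd2 was 22.3, 23.9, 23.8 and 21.9, a difference of -0.09. Hba-a1 and Hba-a2, the alpha globins, had differences of -1.25 and 2.55 and a summed difference of -0.78, and Hbb-b1 and Hbb-b2 of -0.51 and 3.45 and a summed difference of -0.37. Rps27, a ribosomal protein gene with many near-identical copies, was at 17.5, 1616, 211 and 1487, while the other 27 members of the ribosomal protein list lay between -0.26 and 0.51. These single-copy values are uncertain because reads can be shared between copies.

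Most endothelial and alveolar type I markers were below 0, and alveolar type II markers lay on both sides of 0. Of 20 measured endothelial markers 19 were below 0 and 1 was called lower, with a median of -0.49 (GC-centred 1 lower, median -0.40; 0 lower against the IL-22 library). That gene was Plvap, which forms the diaphragms of fenestrae and caveolae, at 179, 425, 244 and 312, and after GC centring it was Clec14a in its place (-0.80 and -1.22). Of 12 alveolar type I markers 10 were below 0 and 1 was called lower, with a median of -0.12 (GC-centred -0.30). That gene was Aqp5 at 163, 342, 188 and 257, a difference of -1.07 that became -0.60 after GC centring (0 called then). Ager was at 1696, 3098, 1964 and 2010.1. Of 16 measured alveolar type II markers 10 were above 0 and 6 below, with a median of 0.28 (GC-centred 0.25). Their summed level was 44180 in the wild-type HDM library and 43959 in PBS. Of these markers 4 were called higher and 0 lower (GC-centred also 4 and 0): Lcn2, Il33, Chi3l1 and Cxcl15. Cxcl15 was under 1 after GC centring (0.63). Chi3l1 (now Chil1, chr1:134182176-134190181), a chitinase-like protein of epithelium and macrophages, was at 2176, 646, 714 and 627 and the chemokine Cxcl15 at 1349, 654, 802 and 651. The surfactant proteins split, with Sftpd at 1659.5, 864, 1177 and 958 and Sftpb at 1144, 2187, 1445 and 1942.

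Fibroblast markers leaned lower, and collagen and matrix genes less so. Of 19 measured fibroblast markers 15 were below 0, 3 were called lower and 0 higher, against 1.95% lower among all measured genes. Their median was -0.52 (GC-centred 2 lower with a median of -0.51, and 1 lower against the IL-22 library). Their summed level was 3222, 5664, 5049 and 4844. Of 32 collagen and matrix genes 20 were below 0, 5 were called lower and 0 higher, with a median of -0.15. Inmt, a methyltransferase of lung fibroblasts, was at 1041, 2411, 2504 and 1828 and Pi16, a marker of adventitial fibroblasts, at 8.61, 24.1, 9.95 and 23.8. Col1a1 was at 37.98, 81.7, 27.3 and 76.6 and Eln (elastin) at 39.9, 87.2, 49.6 and 87.7, with differences of -1.09 and -1.11 that became -0.72 and -0.74 after GC centring, and none of the matrix genes was called then. Both HDM libraries were under both other libraries for Col1a1 and Eln. Timp1, the inhibitor of metalloproteinases, was the matrix regulator that was higher beside Mmp12, at 61.5, 20.2, 17.3 and 27.5, and Mmp9 was at 0.824, 3.28, 1.41 and 2.67. Smooth muscle markers had 0 of 11 called (GC-centred 1, Actg2), with a median of 0.07.

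Markers of heart muscle, which in mice also sheathes the large pulmonary veins, and of fat differed too. Of 11 measured heart markers 4 were lower and 0 higher, against 1.95% lower among all measured genes. Their median was -0.84 (GC-centred 2 lower; 9 lower against the IL-22 library), and their summed level was 403, 769.7, 152 and 1091. Myh6 (chr14:54941921-54966927), the cardiac myosin heavy chain, was at 13.7, 43.2, 4.25 and 47.4 and Tnni3, cardiac troponin I, at 59.9, 147, 21.4 and 178. Fat cell markers had 3 of 10 lower (GC-centred 0) with summed levels of 173, 256, 78.9 and 566, and Adipoq was at 4.71, 6.58, 1.52 and 19.2. Against the same PBS library, the knockout HDM library had 10 of 11 heart markers and 6 of 9 fat markers lower (1.16% of all its measured genes). Their part in the other lower genes, such as Tcap (13.3, 67.8, 9.93 and 73.4), which heart and skeletal muscle express, was not tested. Of 7 measured platelet markers 2 were lower (GC-centred 0), with summed levels of 41.7, 64.1, 38.8 and 64.8.

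**Figure D5:**
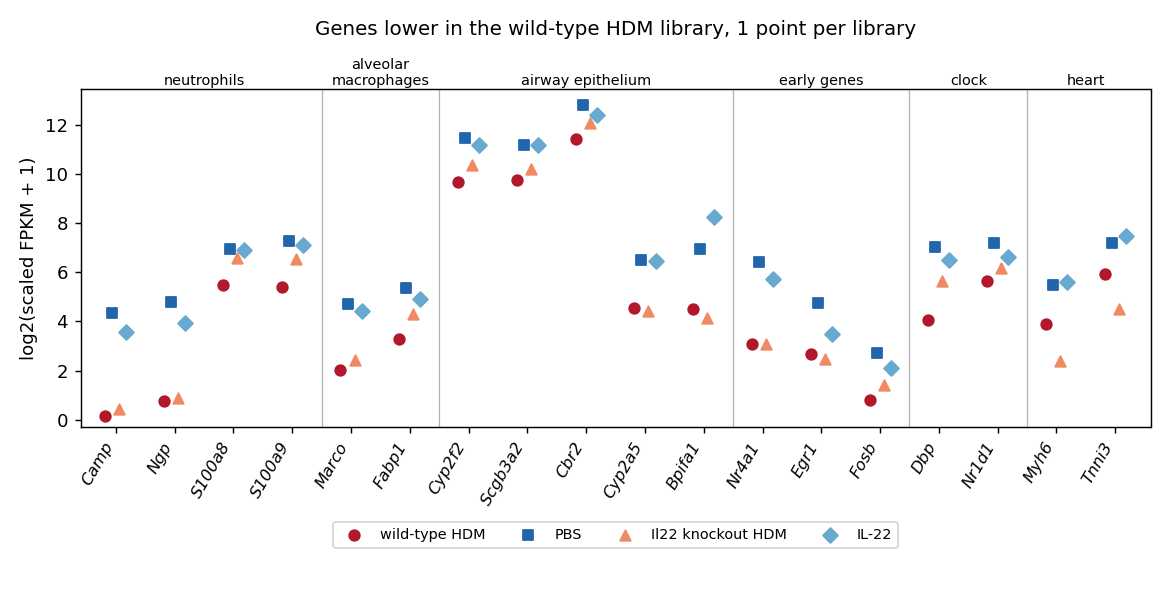
Level of 18 genes that were lower in the wild-type HDM library, as log2(scaled FPKM + 1), with 1 point for each of the 4 libraries and genes grouped by list. The wild-type HDM point lies under the PBS point for each gene, and the knockout HDM point is as low or lower for Cyp2a5, Bpifa1, Nr4a1, Egr1, Myh6 and Tnni3.

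Immediate early genes were lower. Of 22 measured 8 were lower and 0 higher, against 1.95% lower among all measured genes, with a median of -0.72 (GC-centred 6 and 0, median -0.60; 3 against the IL-22 library). Of the 8, Fosb and Egr3 passed the filter only through their PBS level. Nr4a1 (chr15:101254269-101274795), an orphan nuclear receptor induced within an hour of stimulation, was at 7.51, 84.9, 7.35 and 51.8, Egr1 at 5.33, 25.9, 4.54 and 10.1 and Fosb at 0.734, 5.60, 1.64 and 3.34, with differences of -3.34, -2.09 and -1.93. Cyr61 (now Ccn1), a matricellular protein induced by stretch and serum, was at 37.0, 161, 56.5 and 86.6, and Fos had a difference of -0.52. Both HDM libraries were under the IL-22 library, and that under PBS, for Nr4a1, Egr1, Fosb and Cyr61. Against the same PBS library, 8 of 22 were lower in the knockout HDM library as well (1.16% of all its measured genes), with a median of -0.90.

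Clock and glucocorticoid-responsive genes differed too. Among 18 measured clock genes 2 were higher and 3 lower (GC-centred 1 and 4), against 3.61% and 1.95% of all measured genes. Dbp (chr7:45705088-45710203), an output of the clock, was at 15.8, 131, 48.5 and 90.1 and Nr1d1 (REV-ERB alpha) at 49.0, 143, 71.7 and 98.7, with differences of -2.97 and -1.53, while Arntl (BMAL1), which Nr1d1 represses, was at 3.76, 1.29, 1.91 and 1.93, a difference of 1.06. The other higher member was Nfil3, with a difference of 1.15 (GC-centred 1.33). Nfil3 was the 1 member called higher after GC centring, so Arntl was not called then. Of 19 measured glucocorticoid-responsive genes 8 were higher and 0 lower, with a median of 0.54 (GC-centred 8 and 0; 7 against the IL-22 library), against 3.61% higher among all measured genes. Fkbp5, a co-chaperone of the glucocorticoid receptor, was at 21.4, 6.73, 28.3 and 5.66, Zbtb16 at 24.9, 8.85, 26.4 and 3.78 and Pdk4, a regulator of glucose oxidation, at 8.20, 1.89, 8.35 and 2.99. Both HDM libraries were above both other libraries for Fkbp5, Zbtb16 and Pdk4. In the knockout HDM library 7 of 19 members were higher than in PBS (1.79% of all its measured genes). Time of day and handling are not in the labels.

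Heat shock genes were higher in part. Of 15 measured 6 were higher and 0 lower, with a median of 0.81 (GC-centred 3 and 0, median 0.76; 7 against the IL-22 library), against 3.61% higher among all measured genes. Hsph1 was at 56.8, 16.1, 29.9 and 18.9 and Hsp90aa1 at 313, 131, 269 and 152, while Hspa1b was at 34.4, 12.1, 6.596 and 10.4 and Hspa1a at 34.1, 14.2, 6.20 and 11.04. The last pair, near-identical copies that can share reads, had their lowest level in the knockout HDM library. Metabolic housekeeping lay close to equal: 0 of 20 glycolysis genes and 0 of 20 sterol synthesis genes were called, with medians of -0.06 and 0.01 (GC-centred 0 and 1), and reference genes had 1 of 24 called, B2m.

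Some of the genes that were higher lie beside each other in the genome. Of 474 higher genes with a position, 116 (24.5%) had an adjacent measured gene that was also higher, while 6.83% of all 13198 measured genes with a position had an adjacent higher gene. Of 257 lower genes 24 (9.34%) had one that was also lower, against 3.83% of all. Runs of at least 3 adjacent measured genes include Ccl2, Ccl7, Ccl11, Ccl12 and Ccl8 at chr11:82035571-82116799 and Chia, Chi3l3 and Chi3l4 at chr3:106113229-106219507. Others were Retnlb, Retnla and Retnlg at chr16:48816856-48874496, Gbp9, Gbp4, Gbp10 and Gbp6 at chr5:105077630-105293698, and 6 genes at chr1:173723427-174031810 that include Ifi204, Mnda, Mndal, Ifi203 and Ifi205. The runs named here are largely of related genes, which can share reads, and the part of this in the shares was not tested. Not every run is of this kind, and Mx1, Fam3b and Mx2 were another run of higher genes.

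The HDM-treated knockout library and the wild-type HDM library were compared with 1 and the same PBS library, so their differences are set side by side only. Against PBS, 236 genes were higher (1.79%) and 153 lower (1.16%) in the knockout HDM library, among 13160 measured. Each comparison was filtered on its own mean, so the measured members of a list, and its medians here and above, do not cover the same genes. Ccl24, Fbp1 and Muc5ac, for example, were measured for wild type only. Their knockout differences were -0.27, 0.37 and 0.45. Type 2 effectors had 16 of 21 higher in wild type and 9 of 18 in the knockout, with medians of 3.41 and 1.07. Chemokines had 17 of 31 and 4 of 25, with medians of 1.06 and 0.06, and goblet cell genes 10 of 18 and 4 of 14, with medians of 1.18 and -0.09. Monocyte and interstitial macrophage markers had 8 of 22 and 0 of 22, and immediate early genes 8 of 22 and 8 of 22 lower. Glucocorticoid-responsive genes had 8 of 19 and 7 of 19 higher. Club cell markers had 6 of 13 and 1 of 13 lower, with medians of -0.93 and -0.58.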

How the data were processed

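The authors deposited FPKM per gene in 2 tables that hold 2 libraries each. Per the submitters' processing notes, the tools were Cufflinks 2.2.1, TopHat2 and CASAVA 1.8.2 and the build was mm10, and the sources used here do not give settings or any normalization between the tables. Both tables hold the same 23746 rows, 4564 of which stand in another order. The 25 symbols that a spreadsheet format shows as dates were looked up by RefSeq accession, and 98.2% of rows matched RefSeq genes of GRCm38.p6. Both columns were divided by their median ratio to the geometric mean of the pair over genes at 1 FPKM or more in both. The pseudocount was 1, the filter a mean of at least 1, and the size rule 1.

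FPKM are not counts, so reads were recovered from the steps of low values: 61.5% of 8719 values came within 0.1 of a whole number of reads, against 20% by chance. The relative depths to wild-type HDM were 0.801 for PBS, 1.09 for knockout HDM and 1.16 for IL-22. Reads are estimates from transcript length less 200 bases. Ratios have exact binomial 95% intervals that cover counting error only, and the floor for 0 reads was 3 reads per library.

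Named genes were the 15 largest differences each way, up to 4 of the largest per list and 21 chosen genes whatever their values, leaving out predicted genes, small RNAs, pseudogenes and receptor segments, and other list members are examples chosen after their values were seen. Some list members are not reported here. The comparison, the 54 gene lists (27 of cell type markers) and the naming rule were chosen with earlier results of these data known. GC centring used 20 bins of transcript GC content. Promoter windows are RefSeq's. Steps were tested on simulated data. Alternatives were the pseudocount, scaling, filter, size rule, row choice, control library and GC centring. Software was pandas 2.3.3, scipy 1.17.1, numpy 2.4.6 and matplotlib 3.10.9 under Python 3.11.15.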

Additional observations from a re-analysis of the deposited data

How the results depend on the processing

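The main rule gave 481 genes higher and 260 lower. A pseudocount of 0.1 gave 728 and 432, a size rule of 1.5 gave 178 and 58, a mean of at least 5 gave 301 and 215, and GC centring, chosen after the data were seen, 355 and 134. These are fewer or more genes by construction for the first 3 settings, and for GC centring the cause was not tested. With the IL-22 library as control 401 were higher and 230 lower, of which 339 and 133 were called against PBS too. The other scalings, no filter, the highest row per symbol and leaving out small RNAs and unnamed genes gave between 390 and 501 higher and between 233 and 292 lower, and the median of all genes lay between -0.03 and 0.01 over the scalings. Of 215 named genes, 134 were called. None changed direction while called under these settings, and 34 of the called genes were under the size rule after GC centring and 27 against the IL-22 library. No paired analysis was possible because each group has 1 library. Depth limits genes of few reads, such as Il4, Il9 and Epx. Spread between animals was not measured.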

Other observations

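Several gene families, chosen after their values were seen and with some members on the lists, had many members higher, against 3.61% of all measured genes. Of 9 measured members of the Ms4a family 6 were higher and 0 lower (GC-centred 4 and 0). Among them was Ms4a6d (20.6, 2.96, 6.41 and 4.96 in wild-type HDM, PBS, knockout HDM and IL-22), a membrane protein of macrophages. The PYHIN family, DNA sensors induced by interferon, had 6 of 7 higher (GC-centred 3), and the immunity-related GTPases 5 of 7 (GC-centred 4), with Tgtp1 at 29.3, 6.47, 9.74 and 6.70. Of 4 Fc gamma receptor genes 3 were higher (GC-centred also 3), among them the inhibitory receptor Fcgr2b at 45.4, 11.7, 17.6 and 12.0. The Serpina3 family of protease inhibitors, whose copies can share reads, had 4 of 6 higher (GC-centred 3), with Serpina3g at 27.95, 2.94, 6.62 and 2.90. Of 5 measured members of the X-linked Xlr family 4 were higher (GC-centred 3), with Xlr4a at 4.97, 0.662, 2.57 and 1.14.

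Single genes that stood high in the wild-type HDM library and near 0 in PBS were Mrgprg, an orphan receptor of the Mas-related family (4.11, 0, 0.518 and 0.0409, with 165 reads against 0), Sprr2a2, a cornified envelope protein (7.01, 0.00984, 0.131 and 0.0297), Scin, an actin-severing protein (8.22, 0.158, 1.48 and 0.368), and Il4i1, an amino acid oxidase induced by IL-4 (4.64, 0.103, 0.0927 and 0.0656, a ratio of 42.4, interval 16.3 to 157). Il4i1 differed from the other 3 in that its knockout HDM level was not above that of PBS. Among lower genes, the Wnt ligands had 10 of 11 measured members below 0 and 2 called, Wnt3a and Wnt7a, and 19 of 22 glutathione S-transferases were below 0 with 2 called. After GC centring the Wnt median moved from -0.60 to -0.18, and that of the glutathione S-transferases from -0.39 to -0.37. Xist, from the inactive X chromosome of females, was at 10.3, 4.49, 8.21 and 5.10. The ribosomal RNA entry Rn45s was at 483, 70.3, 208 and 141.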
